A study of Arabidopsis thaliana with 12 samples.

Results

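The loci of the Arabidopsis mitochondrial genome were described across 4 growth temperatures. They were taken as every locus whose identifier starts with ATMG, which gave 146 loci with 1 transcript each, out of 33560 annotated loci in the count table. The 46 loci with a total of at least 60 estimated counts over the 12 libraries were kept, and 100 fell below that minimum. Of the 146 loci, 18 were at 0 in every library and 25 held less than 1 count in all. The loci just inside the minimum were ATMG00285 with 60.72 counts, ATMG01060 with 63.0 and ATMG00620 with 75.07. Those just outside were ATMG01180 with 52.32, ATMG00140 with 51.0 and ATMG00960 with 45.0.

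The plants were wild-type Arabidopsis thaliana of ecotype Columbia 0, grown on agar plates with sucrose at 22 °C and 14 days old when the cold began. Groups of 3 libraries came from whole plantlets held at 0, 4 or 10 °C or left at 22 °C, and 10 plantlets were pooled for each library. The labels of the samples give 24 h of cold, whereas the text of the whole series also names 48 and 72 h, so temperature and duration may not be separable. Reads were paired-end, and a library held 32870040 to 41683299 estimated counts. The labels call the libraries biological replicates on separate plates, and a chamber run of its own for each is not stated, so tests rest on the scatter of these libraries. Of the markers examined, those of leaf and of root were present in the group means of every temperature: the leaf gene RBCS1A, for the small subunit of Rubisco, averaged 14328 CPM at 22 °C, and the root gene PYK10, a beta-glucosidase, 2808 CPM (counts per 1000000, TMM-scaled). The seed markers CRA1, CRU3 and SESA1 averaged 1.61 CPM or less in every group, and the flower marker AP1 averaged 0.827 CPM or less.

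Plant mitochondria keep a small genome that encodes subunits of the respiratory chain and of ATP synthase, proteins for cytochrome c maturation, ribosomal proteins, ribosomal RNAs and transfer RNAs. The other subunits, and nearly all proteins that transcribe, splice, edit and degrade mitochondrial RNA, are encoded in the nucleus and imported. In plant mitochondria a poly(A) tail marks an RNA for decay, unlike in the cytosol, so a library selected for poly(A) tails samples mitochondrial RNA poorly and unevenly. Arabidopsis Columbia also carries a large copy of the mitochondrial genome on chromosome 2, and short reads from either genome can match both.

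How RNA was selected for these libraries remains unknown: the labels name total RNA and neither poly(A) selection nor removal of ribosomal RNA. The measured composition was as follows. The 46 mitochondrial loci together took between 0.0519 and 0.0704% of a library's counts, and the 133 chloroplast loci took 0.740 to 1.13%. The nuclear ribosomal RNA locus AT3G41768 took 0.0990 to 0.326%, and 623 loci annotated as transfer RNA took 0.000190 to 0.000420%. The 4 loci annotated as ribosomal RNA in the reference together took 0.101 to 0.328%. Ribosomal RNA at these loci was therefore a small share of every library as counted. Most mitochondrial loci were thinly sampled: 38 of the 46 held fewer than 1000 counts over all 12 libraries. Levels are shares of counts, not corrected for transcript length, so a higher value at one locus than at another does not show more molecules.

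Products could be given for few loci. The reference annotation used here (TAIR10.1) does not list ATMG identifiers as genes of its own, and it names a product only where a note on a nuclear look-alike points to the mitochondrial locus. That gave a product for 12 of the 46 loci, of which ATMG00620 and ATMG01220 read "unknown protein". The rest are called by identifier.

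As a share of the whole library, the mitochondrial loci were highest at 10 °C. They took 0.0647, 0.0704 and 0.0630% of counts at 10 °C and 0.0553, 0.0559 and 0.0581% at 22 °C. At 4 °C they took 0.0579, 0.0571 and 0.0600%, and at 0 °C 0.0519, 0.0597 and 0.0578%. Each library at 10 °C was above the 9 others, and the other temperatures overlapped. The mean share (± SD, n = 3) was 0.0660% ± 0.00386 at 10 °C, compared with 0.0583% ± 0.00150 at 4 °C, while 0 °C had 0.0565% ± 0.00403 and 22 °C had 0.0564% ± 0.00149. The share differed among the 4 temperatures (exact permutation test of the F statistic over 369600 assignments, p = 0.0123). Between 10 °C and each of the other temperatures the exact permutation p was 0.1, the smallest that 3 against 3 libraries allow. In bulk tissue, fewer mitochondria or cells and less RNA in each cannot be told apart.

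The order depended on the scaling. With totals of annotated loci scaled by TMM factors, which lay between 0.792 and 1.19, the mean share became 0.0799% at 0 °C and 0.0674% at 4 °C, while 10 °C had 0.0616% and 22 °C had 0.0595%. The highest group was then 0 °C (exact permutation p = 0.000649). TMM sets the typical tested gene to no change, whereas the plain share divides by all counts.

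**Figure D1:**
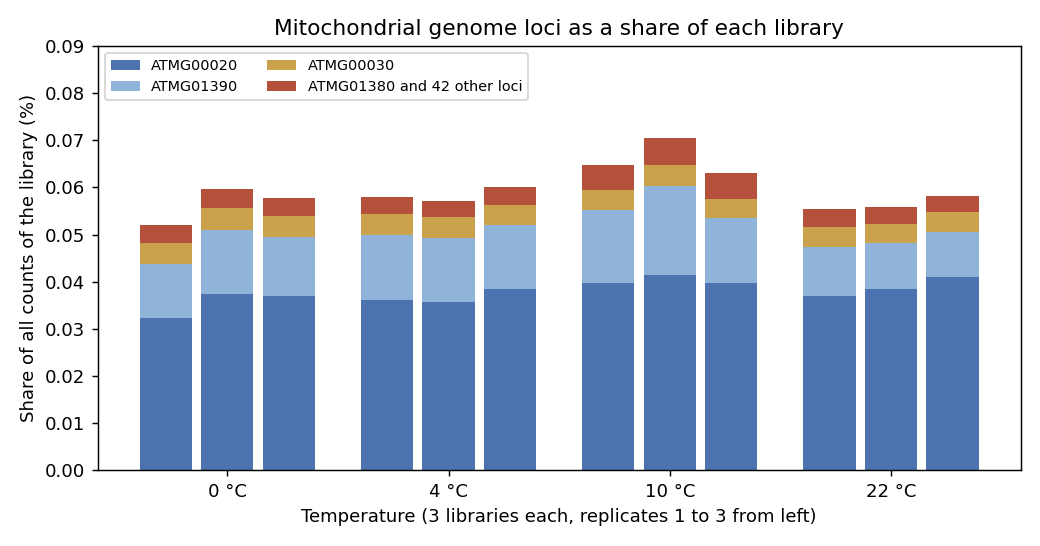
Share of each library's counts (%, vertical axis) taken by the 46 mitochondrial loci, in 12 bars grouped by temperature, with replicates 1 to 3 from left to right. Colours divide each bar into ATMG00020, ATMG01390, ATMG00030 and the other loci together; the bars at 10 °C are the tallest, at 0.0630 to 0.0704%.

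A single locus carried most of these counts. ATMG00020 held 58.7 to 70.5% of the counts of the 46 loci, ATMG01390 held 16.2 to 26.9% and ATMG00030 held 6.30 to 8.35%. A hand-written catalogue of functional classes lists ATMG00020, ATMG01390 and ATMG01380 as ribosomal RNA, which the reference does not give. Without them the remaining loci held 12.9 to 15.4% of the counts of the 46, so the summed share mostly describes that class. The 42 loci besides ATMG00020, ATMG00030, ATMG01380 and ATMG01390 took 0.00317 to 0.00513% of a library. Their share was 0.00466, 0.00513 and 0.00481% at 10 °C and 0.00349, 0.00339 and 0.00321% at 22 °C, with no overlap between those temperatures and a ratio of 1.45 (exact permutation p = 0.1, the smallest possible). The libraries at 0 °C, at 0.00365, 0.00372 and 0.00366%, lay between them. With TMM-scaled totals of annotated loci the order changed here too: these 42 loci averaged 0.00521% at 0 °C, the highest group, whereas 10 °C had 0.00454%, 4 °C had 0.00383% and 22 °C had 0.00355%. The replicate at 10 °C with the highest mitochondrial share, replicate 2, also had the highest chloroplast share (1.13%) and nuclear ribosomal RNA share (0.326%), and the part of these in the result was not tested. Without that library the mean share at 10 °C was 0.0639% and the exact permutation p among the 4 temperatures was 0.0395.

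Changes of single loci were tested with edgeR's quasi-likelihood test in 1 fit of all 12 libraries, with Benjamini-Hochberg adjustment over 21293 genes and TMM scaling. Log2 fold changes below are followed by their standard error, and a locus rose or fell where its adjusted p was under 0.05. The filter on low counts passed 41 of the 46 loci, of which 22 were over the filter value in all 12 libraries. Another 7 (ATMG00330, ATMG00510, ATMG00580, ATMG00780, ATMG00810, ATMG01280 and ATMG01320) were over it in every library of only 1 temperature. Of these, ATMG00330, ATMG00510, ATMG00580, ATMG00780 and ATMG00810 passed only with the group where they were high. ATMG01280 was over the value in 8 libraries and ATMG01320 in 6, so these did not pass through that group alone. ATMG01130 was over it in only 3 libraries, 1 at 0 °C and 2 at 10 °C. The 5 loci not tested (ATMG00060, ATMG00170, ATMG00285, ATMG00620 and ATMG01060) had between 0 and 20 counts in a library.

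At 0 against 22 °C, 12 of the 41 tested loci were higher and 4 lower, against 35.5 and 38.8% of all tested genes, and 25 did not pass. Their median log2 fold change was 0.23, against -0.07 for all genes. At 4 against 22 °C, 7 were higher and 6 lower, against 36.3 and 37.6% of all genes, with a median of 0.01 against -0.03. At 10 against 22 °C, 16 were higher and 2 lower, against 32.4 and 32.3%, with a median of 0.49 against -0.01. Among the 4 temperatures, 32 of the 41 loci differed, against 88.5% of all genes. The 16 and the 32 both include ATMG00330 and ATMG00780, which had equal counts in every library. In the 22 loci seen in all libraries, 7 were higher and 1 lower at 0 °C, 5 and 2 at 4 °C and 8 and 2 at 10 °C. The 3 comparisons share the 22 °C libraries. A locus that did not pass is not shown to be stable. The 16 tested markers of leaf, root, seed and flower also moved: 4 were higher and 9 lower at 0 °C, 1 and 9 at 4 °C, and 5 and 7 at 10 °C, and the part of tissue makeup in the results was not tested.

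The balance of higher and lower loci moved with the scaling. Dividing by total counts alone shifts the median of all genes by -0.41 at 0 °C, -0.14 at 4 °C and 0.15 at 10 °C on the log2 scale relative to TMM. On that scale the loci split into 8 higher and 10 lower at 0 °C, 6 and 9 at 4 °C, and 19 and 0 at 10 °C. All tested genes moved too, to 22.1% higher and 57.8% lower at 0 °C, 31.3 and 43.3% at 4 °C, and 40.1 and 25.0% at 10 °C. Upper quartile factors gave 10 and 7 at 0 °C, 6 and 10 at 4 °C and 15 and 2 at 10 °C. They shifted the median of all genes by -0.23, -0.14 and -0.02. Of all tested genes 27.3, 31.2 and 31.5% were then higher and 49.9, 43.3 and 33.3% lower, in the order 0, 4 and 10 °C. Single libraries also weighed on the counts. Without replicate 2 at 10 °C, 10 loci were higher at 10 °C, against 6422 of all 21533 genes tested. Without replicate 1 at 4 °C, 2 were lower at 4 °C, against 7654 of 21571. The same number was lower without replicate 3 at 22 °C, against 7742 of 21545. Without replicate 2 at 22 °C, 1 was lower at 10 °C, against 6425 of 21522.

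**Figure D2:**
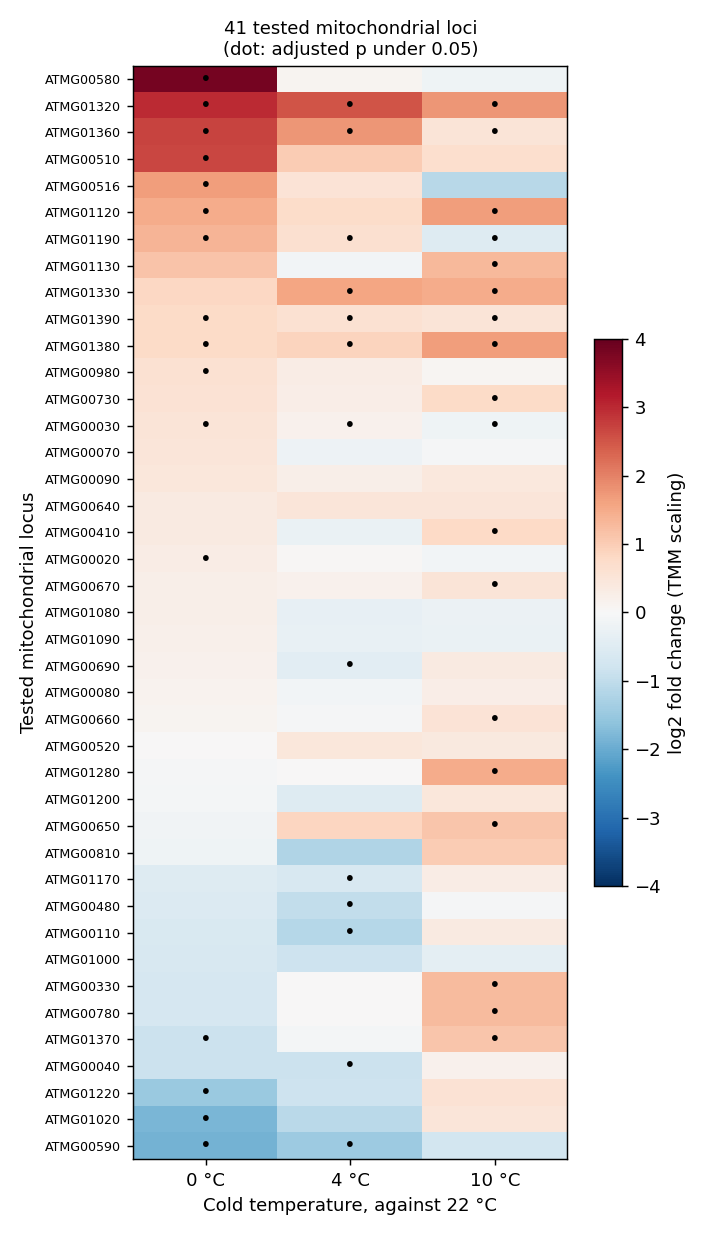
Log2 fold change against 22 °C (colour, TMM scaling) of the 41 tested mitochondrial loci (rows, ordered by the value at 0 °C) at 0, 4 and 10 °C (columns). A dot marks an adjusted p under 0.05; ATMG00580, ATMG01320, ATMG01360 and ATMG00510 head the column of 0 °C, and the loci at its foot are mostly higher at 10 °C than at 0 °C.

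The loci did not follow one course. By mean TMM-scaled CPM, 26 of the 46 were highest at 10 °C and 14 at 0 °C, while 22 °C had 4 and 4 °C had 2. Among the 26 were the pair ATMG00330 and ATMG00780 and the pair ATMG00170 and ATMG00620. Loci of a pair had equal counts in every library, so they are not separate measurements. The same was not counted for all genes, so no share of all genes stands beside these numbers. The lowest mean fell to 22 °C for 15 loci and to 4 °C for 15 more, with 11 left for 0 °C and 5 for 10 °C. Some loci rose in steps toward 0 °C, others had their maximum at 10 °C and were low at 0 °C.

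ATMG01360 showed the clearest steps. It had 197, 220 and 207 counts at 0 °C, 168, 128 and 139 at 4 °C, 63, 93 and 58 at 10 °C, and 49, 45 and 41 at 22 °C. No temperature overlapped with another. The mean TMM-scaled level (± SD, n = 3) was 8.60 ± 0.392 CPM at 0 °C and 4.54 ± 0.101 at 4 °C, while 10 °C had 1.87 ± 0.505 and 22 °C had 1.33 ± 0.189. The log2 fold change against 22 °C was 2.70 ± 0.17 at 0 °C, 1.78 ± 0.17 at 4 °C and 0.50 ± 0.18 at 10 °C (adjusted p 1.99e-08, 1.12e-06 and 0.0265, edgeR). The call at 10 °C was lost without replicate 2 at 10 °C (0.25), or without replicate 2 (0.41) or 3 (0.48) at 22 °C. Between cold temperatures it was higher at 0 than at 4 °C by 0.92 ± 0.16 and at 4 than at 10 °C by 1.28 ± 0.17.

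The ATP synthase loci, for the complex that makes ATP from the proton gradient, split. ATMG01190, ATP synthase subunit 1, had 199, 185 and 183 counts at 0 °C, 139, 135 and 174 at 4 °C, 83.2, 77.4 and 83.0 at 10 °C, and 91.7, 137 and 83.9 at 22 °C. Its log2 fold change was 1.37 ± 0.16 at 0 °C and 0.64 ± 0.16 at 4 °C, both rises, and -0.51 ± 0.16 at 10 °C, a fall (adjusted p 5.17e-06, 0.00258 and 0.0158, edgeR). The fall was lost without replicate 2 at 22 °C, the highest library there (-0.37), and with total counts alone (-0.36). ATMG00410, ATPase subunit 6-1, rose at 10 °C by 0.80 ± 0.23, from 41.9, 33.2 and 33.1 counts at 22 °C to 62.4, 78.8 and 69.8, and its values at 0 and 4 °C were 0.35 ± 0.24 and -0.26 ± 0.24. ATMG00480, ATPase F0 subunit 8, fell at 4 °C (log2 fold change -0.98 ± 0.34, adjusted p 0.0211, edgeR), with 9.5, 13 and 13 counts against 25, 26 and 26.5, and the call was lost in DESeq2 and without replicate 1 at 4 °C or replicate 1 or 3 at 22 °C. ATMG01080 and ATMG01090, which notes on their look-alikes name as the membrane ring subunit 9, passed in no comparison with 22 °C. Both were higher at 0 than at 4 °C, by 0.55 ± 0.16 and 0.51 ± 0.16. The hand-written catalogue lists only ATMG01080 for that subunit.

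The other respiratory loci with a product also differed from each other. ATMG01320, NADH dehydrogenase 2B of complex I, had 10.5, 11 and 13.8 counts at 0 °C, 15.7, 10.2 and 8.30 at 4 °C, 7.47, 13.2 and 3.52 at 10 °C, and 2.32, 1.1 and 3.12 at 22 °C. It rose at all 3 cold temperatures, by 2.99 ± 0.54, 2.50 ± 0.55 and 1.76 ± 0.57 in the order 0, 4 and 10 °C, and the call at 10 °C was lost without replicate 2 at 10 °C or at 22 °C. It was over the filter value in every library only at 0 °C. Its chromosome 2 look-alike AT2G07689 held more counts, 300.29 in all against 100.21, and the summed pair rose by 1.36 ± 0.26, 1.23 ± 0.25 and 0.78 ± 0.26. ATMG00730, cytochrome c oxidase subunit 3 of complex IV, rose at 10 °C by 0.77 ± 0.32 (adjusted p 0.048, edgeR), and its values at 0 and 4 °C were 0.57 ± 0.33 and 0.27 ± 0.33. ATMG01280, a cytochrome c oxidase subunit II-like locus, had 31.9, 51.1 and 46.5 counts at 10 °C against 9.47, 15.4 and 18.5 at 22 °C. Its log2 fold change was 1.47 ± 0.39 at 10 °C, a rise, and -0.04 ± 0.44 and 0.02 ± 0.42 at 0 and 4 °C. ATMG01280 was over the filter value in every library only at 10 °C. ATMG00590, annotated as a cytochrome b/b6 protein, fell at 0 °C (-1.90 ± 0.56) and at 4 °C (-1.46 ± 0.51), from 13.5, 19.5 and 20.5 counts at 22 °C to 6.5, 0.5 and 4 at 0 °C and 6, 6.5 and 6.5 at 4 °C. The call at 4 °C was lost without replicate 1 or 3 at 4 °C or replicate 3 at 22 °C. A chromosome 2 locus, AT2G07718, has the same counts in every library, so the genome of origin of these reads cannot be told apart.

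ATMG00980, of the ribosomal protein S12/S23 family of the mitochondrial ribosome, rose at 0 °C by 0.60 ± 0.20 (adjusted p 0.016, edgeR), with 58.5, 57.5 and 62.5 counts there and 47, 54.5 and 64 at 22 °C. These counts overlapped, and the TMM-scaled levels did not (2.46 ± 0.0831 CPM at 0 °C against 1.63 ± 0.318 at 22 °C, SD, n = 3). With total counts alone the value was 0.19 and did not pass, and the call was also lost without replicate 1 or 2 at 22 °C.

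**Figure D3:**
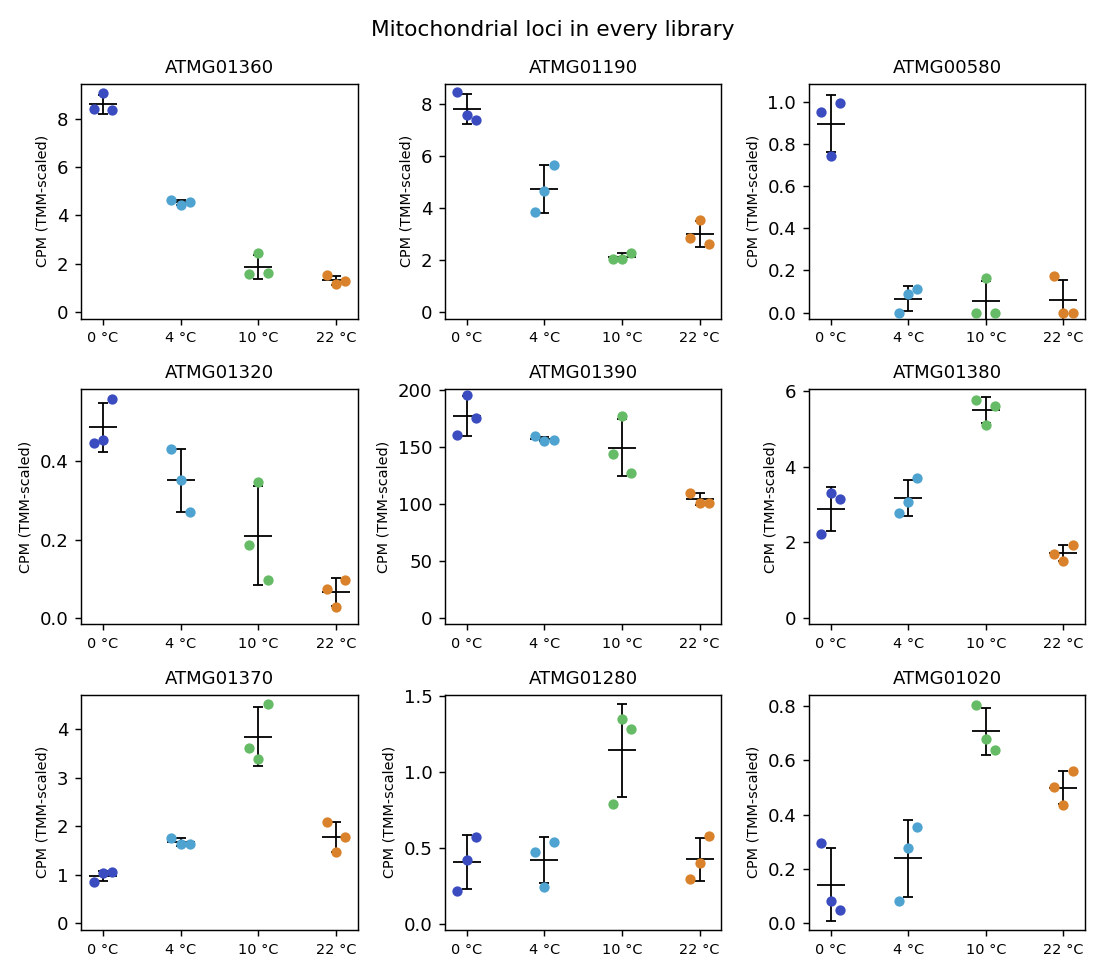
TMM-scaled CPM (vertical axes, linear) of 9 mitochondrial loci in every library, with points for the libraries and bars for mean and SD (n = 3) at each temperature. ATMG01360 falls in steps from 8.60 CPM at 0 °C to 1.33 at 22 °C, whereas ATMG01380, ATMG01370 and ATMG01280 have their highest points at 10 °C.

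The 3 most abundant loci, which have no product in the reference, had log2 fold changes below 1 in size. ATMG00020 had 10628, 13046 and 12858 counts at 0 °C, 15034, 11908 and 13621 at 4 °C, 14975, 14619 and 13365 at 10 °C, and 12335, 15492 and 14056 at 22 °C. The log2 fold change was 0.30 ± 0.062 at 0 °C (adjusted p 0.000816, edgeR), 0.06 ± 0.062 at 4 °C and -0.12 ± 0.062 at 10 °C. The direction at 0 °C turned with total counts alone, to -0.11. ATMG00030 rose at 0 °C by 0.52 ± 0.05 and at 4 °C by 0.17 ± 0.05 and fell at 10 °C (-0.16 ± 0.05), and with total counts alone the values at 4 and 10 °C, 0.04 and -0.01, did not pass. ATMG01390 had 3769, 4766 and 4338 counts at 0 °C, 5774, 4479 and 4790 at 4 °C, 5823, 6699 and 4607 at 10 °C, and 3512, 3903 and 3236 at 22 °C. The counts of 0 and 22 °C overlapped before any division by depth. As plain shares of the library they did not, and 0 °C was above 22 °C (ratio of means 1.27). ATMG01390 rose at each cold temperature, by 0.77 ± 0.10 at 0 °C, 0.60 ± 0.10 at 4 °C and 0.52 ± 0.10 at 10 °C.

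Several loci without a product were highest at 10 °C. ATMG01380 had 232, 193 and 203 counts at 10 °C, 54, 58 and 62 at 22 °C, 100, 88 and 113 at 4 °C and 52, 80 and 78 at 0 °C. It rose against 22 °C by 0.76 ± 0.18 at 0 °C, 0.89 ± 0.17 at 4 °C and 1.68 ± 0.17 at 10 °C, and the rise at 0 °C did not pass with total counts alone (0.35). ATMG01370 had 146, 128 and 164 counts at 10 °C, 67, 57 and 57 at 22 °C, 64, 47 and 50 at 4 °C and 20, 25 and 26 at 0 °C. It rose at 10 °C by 1.11 ± 0.17, fell at 0 °C (-0.86 ± 0.19) and did not pass at 4 °C (-0.08 ± 0.18). ATMG00330 and ATMG00780 had equal counts in every library, so they cannot be taken as separate measurements. Their shared value rose at 10 °C by 1.26 ± 0.31, with 33.5, 24 and 28.5 counts against 6.5, 12 and 14.5. That value was over the filter value in every library only at 10 °C.

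Other loci without a product changed at low counts. ATMG00580 had 22.4, 18.1 and 24.7 counts at 0 °C, and no library at another temperature exceeded 6.23. It rose at 0 °C by 3.83 ± 1.0 (adjusted p 0.00501, edgeR). ATMG00510 rose there by 2.67 ± 0.58, with 19.7, 22.6 and 13.4 counts against 5.74, 3.13 and 3.36. ATMG00580 and ATMG00510 passed the filter through their counts at 0 °C, so these calls are not independent of the filter. ATMG00516 rose there by 1.66 ± 0.58, and that call was lost without replicate 1 at 0 °C, without replicate 1 or 3 at 22 °C, and with total counts alone. ATMG01120 rose at 0 °C by 1.49 ± 0.43 and at 10 °C by 1.68 ± 0.41. ATMG01330 rose at 4 °C by 1.58 ± 0.49 and at 10 °C by 1.49 ± 0.49, the latter lost without replicate 2 at 10 °C or replicate 1 or 2 at 22 °C. Summed with its look-alike AT2G07808, which held 606.77 counts, ATMG01330 rose by 0.71 ± 0.18, 0.96 ± 0.17 and 0.80 ± 0.17 at 0, 4 and 10 °C, and all 3 passed. Falls were seen for ATMG01020 (-1.82 ± 0.59) and ATMG01220 (-1.48 ± 0.42) at 0 °C, and for ATMG00110 (-1.13 ± 0.32) and ATMG00040 (-0.86 ± 0.36) at 4 °C. Summed with its look-alike AT2G07798, ATMG01220 fell at 0 °C (-1.03 ± 0.23) and rose at 10 °C (1.05 ± 0.20, adjusted p 0.000463, edgeR), where ATMG01220 alone had not passed. The call of ATMG01020 was lost without replicate 2 or 3 at 0 °C. That of ATMG00040, with an adjusted p of 0.0489 (edgeR), was lost in most other settings. ATMG00520 passed in no comparison with 22 °C (0.02 ± 0.36, 0.45 ± 0.34 and 0.39 ± 0.34 in the order 0, 4 and 10 °C).

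The cold temperatures also differed from each other. At 0 against 10 °C, 12 loci were higher and 13 lower, against 33.9 and 36.6% of all genes. The largest differences were ATMG00580 (3.99 ± 1.0), ATMG00516 (2.77 ± 0.63) and ATMG01360 (2.2 ± 0.17) on the higher side, and ATMG01020 (-2.32 ± 0.57), ATMG01220 (-2.05 ± 0.40) and ATMG01370 (-1.97 ± 0.18) on the lower side. ATMG00580 passed the filter only through its libraries at 0 °C. With total counts alone the split was 6 higher and 26 lower, against 16.1 and 64.8% of all genes on that scale. ATMG00020 (-0.15) and ATMG01390 (-0.32) then passed as lower at 0 °C. At 4 against 10 °C, 5 were higher and 17 lower, against 29.7 and 30.3% of all genes, and the 5 were ATMG00020, ATMG00030, ATMG00516, ATMG01190 and ATMG01360. The 13 and the 17 lower loci both include ATMG00330 and ATMG00780, which had equal counts in every library. At 0 against 4 °C, 11 were higher and 1 lower (ATMG01370), against 29.2 and 28.8%. With total counts alone these were 4 and 5, against 17.2 and 48.5% of all genes on that scale. Without replicate 2 at 0 °C they were 7 and 2, against 5873 and 5852 of all 21559 genes tested.

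The counts of mitochondrial loci could not be separated fully from those of the chromosome 2 copy. The notes of the reference pair 14 of the 46 loci with a nuclear look-alike, and 3 loci had the same counts as a chromosome 2 locus in each library, within 0.5 counts. ATMG00980 and AT2G07675 were such a pair, with 730.71 counts each in all, and ATMG00480 and AT2G07707 another, with 232 each. Where rows are equal, which genome the reads came from cannot be told apart. ATMG00590 and AT2G07718 were the last, with 118.5 each. In 7 pairs the mitochondrial locus held less than 1 count in all and the nuclear one at least 60. The largest were ATMG00610, a putative membrane lipoprotein, beside AT2G07719 with 808 counts, and ATMG00500 beside AT2G07708 with 563. ATMG00220, apocytochrome b of complex III, was listed at 0 in all 12 libraries while AT2G07727 held 356 counts. ATMG00990, NADH dehydrogenase 3, held less than 1 count while AT2G07751 held 370.0, and ATMG00180, a cytochrome c biogenesis locus, was listed at 0 while AT2G07815 held 496.28. In 4 pairs the reverse held, with the counts on the mitochondrial identifier and less than 1 on the nuclear one: ATMG00410 (500.26 counts), ATMG00620 (75.07), ATMG01090 (1078.85) and ATMG01280 (243.09). A locus at 0 here is therefore not shown to be silent, and the 46 loci are not the whole of mitochondrial expression.

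Counts on the identifiers of the nuclear look-alikes changed with temperature as well, and which genome these reads came from was not determined. AT2G07698, paired with ATMG01190, had 258, 299 and 304 counts at 0 °C, 316, 237 and 277 at 4 °C, 242, 266 and 244 at 10 °C, and 155, 149 and 182 at 22 °C. It rose by 1.31 ± 0.12 at 0 °C, 0.86 ± 0.12 at 4 °C and 0.46 ± 0.12 at 10 °C. Summed, the pair rose by 1.36 ± 0.081 at 0 °C and 0.79 ± 0.081 at 4 °C, and at 10 °C the direction turned to 0.18 ± 0.081, which did not pass (adjusted p 0.0773, edgeR). The fall of ATMG01190 at 10 °C was thus not seen in the sum. AT2G07687, paired with ATMG00730, rose by 2.32 ± 0.39, 1.45 ± 0.40 and 1.52 ± 0.39 at 0, 4 and 10 °C, and the summed pair by 1.31 ± 0.25, 0.71 ± 0.25 and 1.03 ± 0.25. AT2G07727 had 24, 45 and 42 counts at 0 °C against 14, 16 and 29 at 22 °C, a rise of 1.38 ± 0.38. AT2G07671, paired with ATMG01080, rose at 0 °C by 0.81 ± 0.094, and the summed pair by 0.58 ± 0.084.

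**Figure D4:**
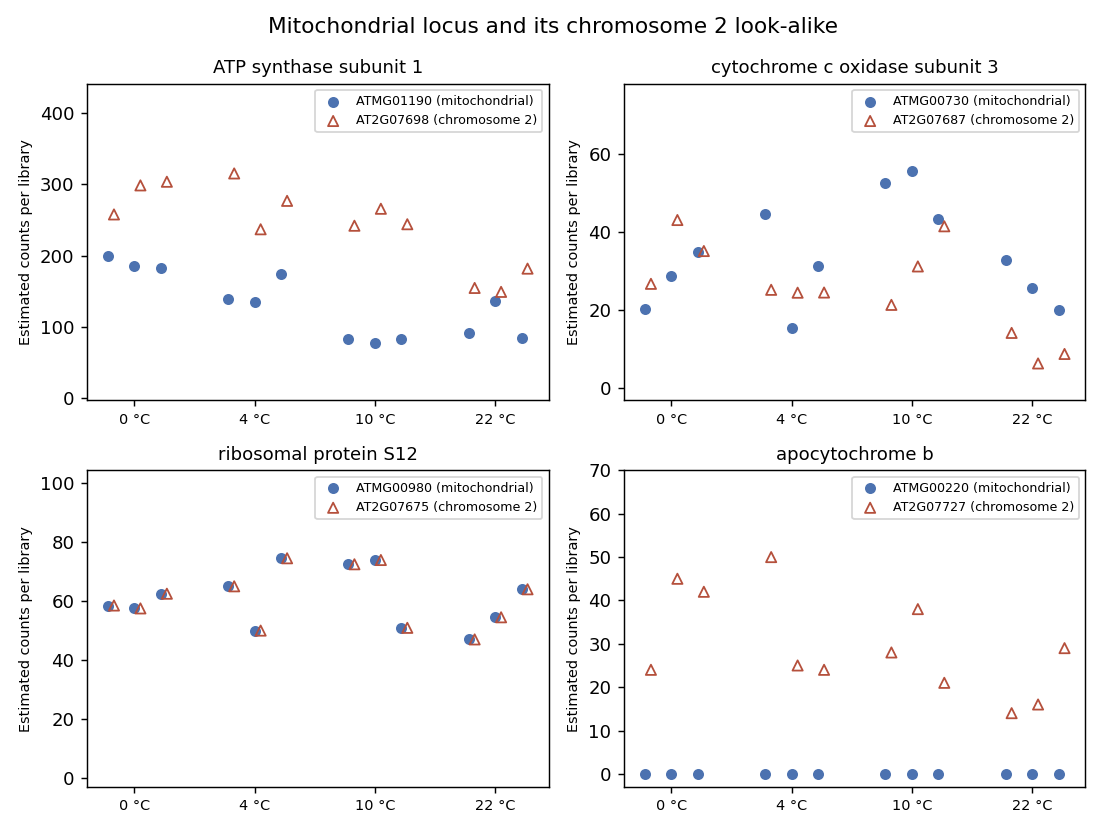
Estimated counts per library (vertical axes) of 4 mitochondrial loci (filled circles) and their chromosome 2 look-alikes (open triangles), 3 libraries at each temperature. The S12 pair has equal counts, ATMG00220 is listed at 0 in all 12 libraries, and ATMG01190 and AT2G07698 part most at 10 °C.

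In all, 150 loci with identifiers in the range of the chromosome 2 copy took 0.00878 to 0.0145% of a library, and the range also holds ordinary nuclear genes such as AT2G07690, of the MCM family. Of the 48 of them tested, 11 were higher and 8 lower at 0 °C, 7 and 9 at 4 °C, and 18 and 1 at 10 °C, against 35.5 and 38.8%, 36.3 and 37.6%, and 32.4 and 32.3% of all tested genes. The split was 6 and 17, 5 and 11, and 26 and 0 when total counts alone were used. All tested genes were then at 22.1 and 57.8%, 31.3 and 43.3%, and 40.1 and 25.0%. The 14509 assembled transcripts, which carry no annotated locus, held 9.79 to 12.2% of counts and may include mitochondrial reads. When they were kept as features of their own in the fit, 21 of the mitochondrial loci differed among the 4 temperatures in place of 32. At 10 °C, 10 loci were higher in place of 16. Of all 33634 features in that fit, 7924 were higher at 10 °C, in place of 6894 of 21293 genes. How many of all features differed among the 4 temperatures there was not counted. Calls lost there included ATMG00516, ATMG00580 and ATMG00980 at 0 °C, ATMG00590 at 0 and 4 °C, and ATMG01330 and ATMG01360 at 10 °C.

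On the TMM scale most of the listed nuclear genes that act on mitochondrial RNA were higher in the cold than at 22 °C. Of 38 such genes 37 were tested, OTP43 being the exception. At 0, 4 and 10 °C, 24, 26 and 27 of them were higher and 5, 4 and 1 lower than at 22 °C, with medians of 0.66, 1.08 and 0.95. Of all tested genes 35.5, 36.3 and 32.4% were higher and 38.8, 37.6 and 32.3% lower. Scaled by total counts alone, 16, 25 and 28 were higher and 11, 5 and 1 lower. On that scale 22.1, 31.3 and 40.1% of all tested genes were higher and 57.8, 43.3 and 25.0% lower. PMH1, a mitochondrial RNA helicase, averaged 88.3 CPM at 0 °C, 111 at 4 °C and 88.8 at 10 °C against 13.5 at 22 °C, rises of 2.72 ± 0.042, 3.04 ± 0.042 and 2.72 ± 0.042. BIR6, a pentatricopeptide repeat protein of a family that binds organelle RNA, rose by 2.41 ± 0.12, 2.85 ± 0.12 and 2.23 ± 0.12, and MGP3, the phage-type RNA polymerase of mitochondria, by 1.77 ± 0.060, 2.32 ± 0.059 and 2.11 ± 0.059. AT5G14580, a polyribonucleotide nucleotidyltransferase that trims and degrades RNA, rose by 1.07 ± 0.093, 2.27 ± 0.089 and 2.50 ± 0.089. Falls were seen for AT5G04050, a reverse transcriptase-like protein (-2.07 ± 0.27 at 0 °C), AT4G31010, an RNA-binding CRM domain protein (-1.18 ± 0.11 at 0 °C), and PRORP1, a protein-only RNase P that matures transfer RNA (-0.53 ± 0.042 at 0 °C and -0.85 ± 0.042 at 4 °C).

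The nuclear subunits of the respiratory complexes were more often higher than lower on the TMM scale, by smaller amounts. Of 38 tested, 24, 23 and 30 were higher and 1, 1 and 2 lower at 0, 4 and 10 °C, with medians of 0.17, 0.21 and 0.31, beside the same shares of all genes. The direction at 0 °C depended on the scaling. With total counts alone 9, 15 and 32 were higher and 27, 10 and 1 lower, with medians of -0.24, 0.07 and 0.47. All genes then had medians of -0.48, -0.17 and 0.14, with 22.1, 31.3 and 40.1% higher and 57.8, 43.3 and 25.0% lower. Upper quartile factors gave 11 higher and 13 lower at 0 °C, with a median of -0.06. All genes then had 27.3% higher and 49.9% lower, with a median of -0.30. CYTC-2, a cytochrome c that carries electrons to complex IV, rose most, by 3.02 ± 0.054, 1.96 ± 0.053 and 1.21 ± 0.053. The succinate dehydrogenase (complex II) subunits SDH2-1 and SDH1-1 rose by 1.79 ± 0.045 and 1.76 ± 0.030 at 0 °C, 1.54 ± 0.045 and 1.81 ± 0.030 at 4 °C, and 0.40 ± 0.044 and 1.12 ± 0.030 at 10 °C. GAMMA CAL2, a gamma carbonic anhydrase-like subunit of complex I, was the exception at 0 and 4 °C and fell there (-0.38 ± 0.051 and -0.53 ± 0.050). The difference between the nuclear lists and the mitochondrial loci was not tested, and mitochondrial loci were counted at far lower depth.

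**Figure D5:**
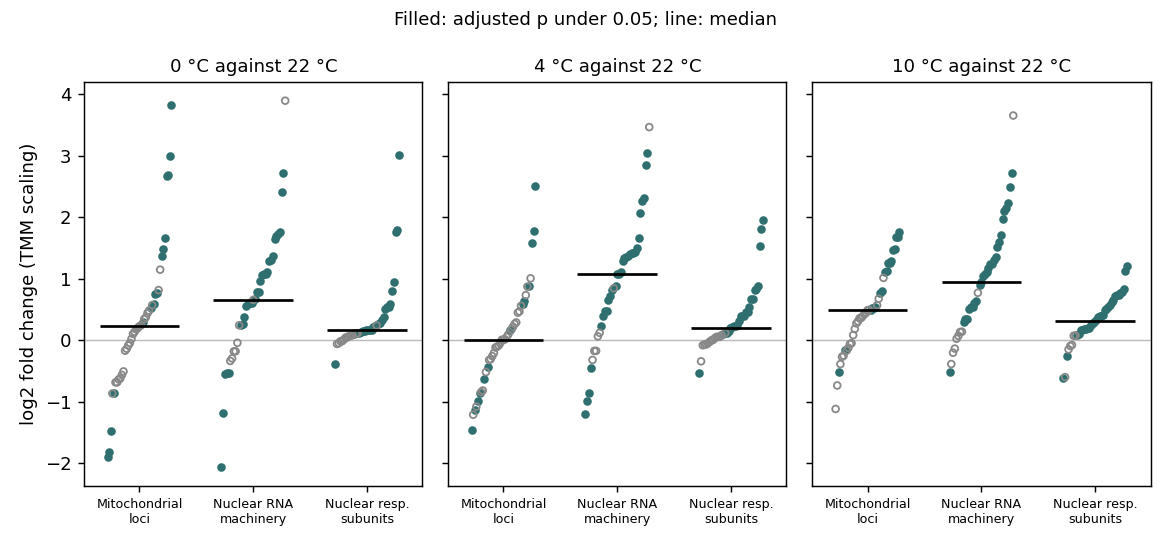
Log2 fold change against 22 °C (vertical axes, TMM scaling) of the 41 tested mitochondrial loci, 37 nuclear genes of mitochondrial RNA and 38 nuclear respiratory subunits, sorted within each list, at 0, 4 and 10 °C. Filled points have an adjusted p under 0.05 and lines mark medians, which for the nuclear RNA genes are 0.66, 1.08 and 0.95.

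Chloroplast loci, which share the same library limits, were read beside these. Of 110 tested, 59 were higher and 3 lower at 0 °C, 59 and 6 at 4 °C, and 17 and 16 at 10 °C on the TMM scale, against 35.5 and 38.8%, 36.3 and 37.6%, and 32.4 and 32.3% of all tested genes. These became 24 and 20, 50 and 14, and 34 and 10 with total counts alone. On that scale 22.1 and 57.8%, 31.3 and 43.3%, and 40.1 and 25.0% of all tested genes were higher and lower. Their summed share (mean ± SD, n = 3) was 0.977% ± 0.0354 at 4 °C, the highest mean, followed by 0.911% ± 0.188 at 10 °C, and 0 °C had 0.800% ± 0.0867 and 22 °C 0.795% ± 0.0153. The plain shares of 0 and 22 °C overlapped (ratio of means 1.0063), whereas with TMM-scaled totals of annotated loci it was 1.13% ± 0.141 at 0 °C and 0.838% ± 0.0218 at 22 °C (SD, n = 3).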

How the data were processed

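Paired-end RNA sequencing of 12 libraries was used, 3 at each of 4 temperatures, grouped by the labels. The submitters' processing notes list HISAT2 2.2.0, kallisto 0.42.4, edgeR and TAIR10; the role of each, strand and library selection are not given in the sources used here. The authors deposited a transcript table of estimated counts, not always whole numbers, and CPM values, per the file headers. The deposited CPM equal counts per 1000000 of each column's total (largest difference 5.46e-11). The table has 6 further columns that match no sample and were not used. Depth was 32870040 to 41683299 counts per library, and counting error sets the precision of low loci.

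Counts of annotated transcripts were added up by locus, then rounded. The filter filterByExpr kept 21293 genes, which were tested with edgeR 4.0.16 (R 4.3.3) by glmQLFit and glmQLFTest in 1 fit with TMM factors and 1 mean per temperature (common biological coefficient of variation 0.1), for 6 pairs and all 4 temperatures. Standard errors are the absolute log2 fold change over the square root of F. DESeq2 1.42.0, other scalings and filters, a replicate block, summing with chromosome 2 copies, keeping assembled transcripts and leaving out each library were alternatives. Shares were compared by exact permutation. The chain was tested on simulated data for 0 against 22 °C (20942 genes): 60% of 1.5-fold, 82% of 2-fold and 100% of 4-fold changes were recovered. The changed genes were drawn from all genes passing the filter, with the same dispersion for each. Recovery at the low counts of most mitochondrial loci was therefore not measured.

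Loci named with values in every sample are the most abundant of each functional class of a hand-written catalogue, whose names are not printed where the reference gives none, and up to 4 rises and 4 falls in each comparison with 22 °C; other loci with a product were added. Members and lists were chosen with earlier results of these data known.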

Additional observations from a re-analysis of the deposited data

How the results depend on the processing

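With RLE factors every count of called loci stayed within 1.5 times the reported one. Total counts alone gave 10 lower at 0 against 22 °C, 0 lower at 10 against 22 °C, 4 higher and 5 lower at 0 against 4 °C, 6 higher and 26 lower at 0 against 10 °C, and 2 higher at 4 against 10 °C. The shares of all genes moved with that scaling as well. Upper quartile factors gave 7 lower at 0 and 10 lower at 4 against 22 °C, against 49.9 and 43.3% of all genes. They gave 2 lower at 0 against 4 °C, against 34.9% of all genes. At 0 and at 4 against 10 °C they gave 7 and 3 higher, against 25.7 and 23.2% of all genes. Scaling by the summed mitochondrial counts removes their common change by construction. It gave 7 higher and 11 lower at 0 and 11 lower at 4 against 22 °C. At 0 against 4 °C it gave 4 higher and 2 lower, and at 0 against 10 °C 6 higher. Of all 21293 genes, 4391 were then higher and 11951 lower at 0 and 9172 lower at 4 against 22 °C. For all genes it gave 3450 higher and 8857 lower at 0 against 4 °C, and 4129 higher at 0 against 10 °C. With assembled transcripts kept, 21 loci differed among the 4 temperatures, with 3 lower at 4 and 10 higher at 10 against 22 °C. Another 7 calls were higher at 0 against 4 °C, 6 at 0 against 10 °C and 3 at 4 against 10 °C. Of all 33634 features, 9708 were then lower at 4 and 7924 higher at 10 against 22 °C. In the last 3 comparisons 7002, 8983 and 6922 features were higher. DESeq2 gave 2 lower at 4 against 22 °C, against 7610 of all 21293 genes. Summing with chromosome 2 copies gave 1 lower at 10 against 22 °C and 2 lower at 0 against 4 °C. Of all 21284 genes, 6729 and 5963 were then lower in those comparisons. The cause of these moves was not tested.

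Leaving out 1 library gave 10 to 13 higher and 3 to 5 lower at 0 against 22 °C, 7 to 8 and 2 to 7 at 4 against 22 °C, 10 to 16 and 1 to 3 at 10 against 22 °C, 7 to 12 and 1 to 2 at 0 against 4 °C, 8 to 11 and 10 to 13 at 0 against 10 °C, 3 to 7 and 14 to 17 at 4 against 10 °C, and 27 to 30 among the 4 temperatures. In some of these fits 43 loci were tested in place of 41. Of all genes, 21522 to 21573 were tested. At 0 against 22 °C 7264 to 7645 were higher and 7721 to 8360 lower, at 4 °C 7411 to 7846 and 7612 to 8057, and at 10 °C 6410 to 7056 and 6425 to 6988. These were 5823 to 6329 and 5595 to 6170 at 0 against 4 °C, 6971 to 7302 and 7199 to 7894 at 0 against 10 °C, and 5876 to 6423 and 5832 to 6573 at 4 against 10 °C. The mitochondrial share's p was 0.00773 to 0.0395, and with TMM-scaled totals 0.000649, where the highest group turned from 10 to 0 °C.

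Direction turned for ATMG00020 at 0 °C with total counts alone (-0.11) and scaled by mitochondrial counts (-0.12, adjusted p 0.0295 in edgeR), for ATMG00030 at 4 °C in the latter (-0.0054), and for ATMG01190 at 10 °C summed with its copy (0.18). With total counts alone it also turned for 5 loci at 0 against 10 °C (ATMG00020 at -0.15 and ATMG01390 at -0.32, both passing in edgeR, and ATMG00980, ATMG01080 and ATMG01090), and for ATMG00020 at 0 and at 10 against 4 °C; scaled by mitochondrial counts it turned for ATMG00020 at 0 against 4 °C and ATMG01390 at 0 against 10 °C. Replicate numbers do not pair the libraries: the 18 same-numbered correlations lay between -0.0415 and 0.0989. A replicate block gave 2 lower loci at 0 against 4 °C, against 5984 of all 21293 genes. It also gave 28 loci differing among the 4 temperatures and a share p of 0.0382.

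Low counts, unknown library selection, reads shared with chromosome 2 and the unsettled duration of cold limit all of these values. Scalings of the nuclear, chloroplast and chromosome 2 lists and TMM-scaled shares of loci other than the 46 together were added after seeing the data.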

Other observations

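Among all tested genes outside the mitochondrial genome, the 5 whose log2 CPM was most like that of the summed mitochondrial loci over the 12 libraries were AT3G29075, a glycine-rich protein (Pearson r = 0.9646), MPC (0.9615), AT1G17830 (0.954), AT5G24340, with an exonuclease domain (0.9505), and ARF1A1C, a small GTP-binding protein (0.9501). They were chosen for their r, the 12 libraries fall into 4 temperature groups, and the values describe likeness on the TMM scale, on which the sum is highest at 0 °C.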
